A study of Homo sapiens with 4 samples.

Results

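The m6A readers described here are 8 genes, YTHDF1, YTHDF2, YTHDF3, YTHDC1 and YTHDC2 of the YTH family and IGF2BP1, IGF2BP2 and IGF2BP3, out of 19468 named genes in the authors' deposited table of fold changes. A gene belonged to the set when the accession of a row in that table, without its version, mapped to its symbol in the RefSeq gene table. Each of the 8 genes was found, and each had 1 row (record). The study measured total RNA of MDA-LM2 cells, a derivative of the human breast cancer cells MDA-MB-231 selected for metastasis to the lung, on 4 Illumina expression BeadChips 48 hours after transfection with Lipofectamine. The TARBP2 knockdown group held 2 arrays, each from cells given a different siRNA against TARBP2 (siTARBP2-1 and siTARBP2-2), and the control group held 2 arrays from cells given a control siRNA (siControl-1 and siControl-2). The series' design text speaks of mock transfection for the controls, whereas the sample labels name the control siRNA. All arrays came from the same cell line and medium, and the knockdown arrays differ in the siRNA. The labels do not state whether siControl-1 and siControl-2 were separate cultures, so the difference between these arrays may be technical. TARBP2 encodes a protein that binds double-stranded RNA and is a known cofactor of Dicer.

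N6-methyladenosine (m6A) is a methyl mark placed on adenosines of mRNA by a writer complex around METTL3 and METTL14 and removed by the demethylases FTO and ALKBH5. Readers bind the marked RNA and set its fate. The YTH proteins hold the methylated base in a pocket of their YTH domain: YTHDF1, YTHDF2 and YTHDF3 act in the cytoplasm on decay and translation, YTHDC1 acts in the nucleus on splicing and export, and YTHDC2 carries an RNA helicase domain. The IGF2BP proteins bind RNA through KH domains and are known to stabilise their target mRNAs, among them MYC, and their expression is high in embryonic tissue and in many tumours.

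The values come with limits that apply to each gene below. The authors' deposited table gives for each record 1 log fold change, with the TARBP2 siRNAs on top of the ratio, with no value per array, no error and no number of replicates. Its log base, its contrast and the way probes were joined to records are unstated, and its values are read as log2. They were not recovered from the arrays. Ratios were taken as the mean log2 of the knockdown arrays minus the mean log2 of the control arrays, from the authors' normalized intensities. Of the 345 values beyond 0.8 in size in the authors' deposited table, 67 were matched to within 0.0001 by some probe, and 68 with the sign turned. With knockdown array 1 alone over the control mean, 191 were matched, and 175 with the sign turned. With knockdown array 2 alone, the counts were 29 and 23. Since values with the sign turned were matched nearly as often, these counts do not tell which contrast was used. The probe tables carry no gene names, so the level of a reader on each array is not given, and neither are a test of a reader gene or a check of the cell line against its marker genes. The target had a value of -0.78 in the authors' deposited table, the mean of records at -0.98 and -0.58. On the arrays, no probe among 21075 passed the test of knockdown against control (limma, adjusted p under 0.05, 0%), with 815 probes at an unadjusted p under 0.05. The count was 4479 without knockdown array 1 and 12035 without knockdown array 2, in fits whose spread comes from the controls alone, and 0 when a control array was dropped. The array of siTARBP2-1 stood apart, with SDs of the log2 difference over probes of 0.852 from siTARBP2-2, 0.805 from siControl-1 and 0.799 from siControl-2. The array of siTARBP2-2 was nearer to the controls, with SDs of 0.384 and 0.395, and the SD between the 2 controls was 0.25. How much each knockdown array weighs in the reader values is not known, so they cannot be given without either array.

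Of the 8 readers, 7 had a value below 0 in the authors' deposited table and 1 a value above 0. Values below -0.2 were listed for 4 of them, YTHDF2, IGF2BP3, YTHDC1 and IGF2BP2, and above 0.2 for none. Of the 19468 genes with a name in the authors' deposited table, 12.1% lay below -0.2 and 13.1% above 0.2. These genes were not filtered by detection, which that table does not give, and 41% to 45.7% of probes were detected on each array. The shares and ranks among detected genes only are thus not known. Of the 80 genes of the related lists below, 23.8% lay below -0.2 and 20.0% above 0.2. The bound of 0.2 is the one that separates the authors' class 1 (up-regulated) from class 0, and -0.2 is its mirror. All 8 readers are in class 0 of the authors' deposited table. That class has no separate level for lowered genes, and it also holds TARBP2 at -0.78, so it does not mean that a reader was unchanged. The median of the 8 readers was -0.24 in the authors' deposited table, beside 0.0024 for all named genes, of which 49.0% were below 0. These shares describe 8 genes that were chosen with results of the same table known, and no test was made of them. In RNA of a whole culture, fewer cells with a transcript and less of the transcript per cell cannot be told apart.

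**Figure D1:**
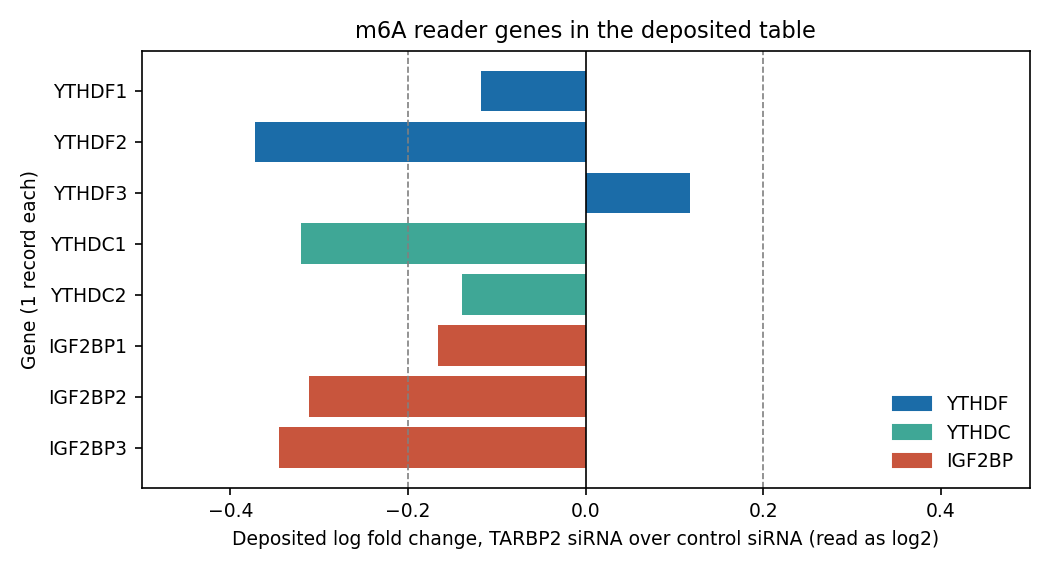
Log fold change of the 8 m6A reader genes in the authors' deposited table (x axis, TARBP2 siRNA over control siRNA, read as log2), with 1 bar for each gene and colours for the YTHDF, YTHDC and IGF2BP genes; the table gives no error. Dashed lines mark -0.2 and 0.2: 4 bars pass -0.2, none passes 0.2, and YTHDF3 is the one bar on the positive side.

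The cytoplasmic YTHDF readers, which resemble each other closely in protein sequence, were listed at different values. Without an error, whether they differ cannot be said, and 31.6% of pairs of records of the same gene differed by more than 0.2. YTHDF2, the reader known for sending marked mRNAs to decay through the CCR4-NOT deadenylase, had the lowest value of the set at -0.37 in the authors' deposited table. This is 77.2% of the control level if the value is a log2. Of all named genes in the authors' deposited table, 1116 (5.73%) stood lower. YTHDF1, known for raising the translation of marked mRNAs, was listed at -0.12 in the authors' deposited table (92.1% of control as log2), with 18.1% of named genes lower. YTHDF3, which is known to work with both of them, was the one reader above 0, at 0.12 in the authors' deposited table, with 79.9% of named genes lower. The 3 YTHDF genes thus spanned 0.49 in the authors' deposited table, the widest span of the families. YTHDF1 and YTHDF3 both lay inside the interval from -0.2 to 0.2.

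The 2 YTHDC genes were both below 0. YTHDC1, the nuclear reader that acts with splicing factors and the export machinery, was listed at -0.32 in the authors' deposited table (80.1% of control as log2). Of the named genes, 7.21% had a lower value than YTHDC1 there. YTHDC2, known in mice for its part in the meiotic programme of germ cells, was listed at -0.14 in the authors' deposited table, with 3112 named genes lower. YTHDC1 was past -0.2 and YTHDC2 was not, a difference of 0.18 in the authors' deposited table that has no error to set it against.

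Each of the 3 IGF2BP genes had a value below 0, and 2 of them lay past -0.2. IGF2BP3, an oncofetal RNA-binding protein found in many carcinomas, was listed at -0.35 in the authors' deposited table (78.7% of control as log2), with 6.54% of named genes lower. IGF2BP2, the member expressed most widely in adult tissue, was listed at -0.31 in the authors' deposited table (80.6% of control as log2), with 7.47% of named genes lower. IGF2BP1, known for stabilising MYC mRNA, was listed at -0.17 in the authors' deposited table (89.1% of control as log2), with 14.2% of named genes lower. The mean of the 3 IGF2BP genes was -0.27 in the authors' deposited table, beside -0.17 for the 5 YTH genes.

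The order of the 8 values, low to high, was YTHDF2, IGF2BP3, YTHDC1, IGF2BP2, IGF2BP1, YTHDC2, YTHDF1 and YTHDF3. The 4 readers past -0.2 lay within 0.06 of each other in the authors' deposited table, and the next, IGF2BP1, stood 0.15 above IGF2BP2. IGF2BP2 and IGF2BP1 are the readers just past the bound and just inside it. Whether neighbours in this order differ cannot be said, since no reader has an error. A guide to the scatter of the deposited values is the agreement of records of the same gene. Among the 2131 named genes with 2 records in the authors' deposited table, these differed by a median of 0.12, and 31.6% of the pairs differed by more than 0.2. The pair had opposite signs for 41.9% of these genes. Of the 236 genes with 2 records whose mean was below -0.2, both records were below -0.2 for 93 (39.4%). Records can stand for different transcripts of a gene, so this scatter is not measurement error alone. The readers have 1 record each, against 1 curated RefSeq transcript for YTHDF1 and IGF2BP3, 2 for IGF2BP1, 3 for YTHDF2, YTHDC1 and YTHDC2 and 8 for YTHDF3 and IGF2BP2, so other transcripts of these genes may not be covered.

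**Figure D2:**
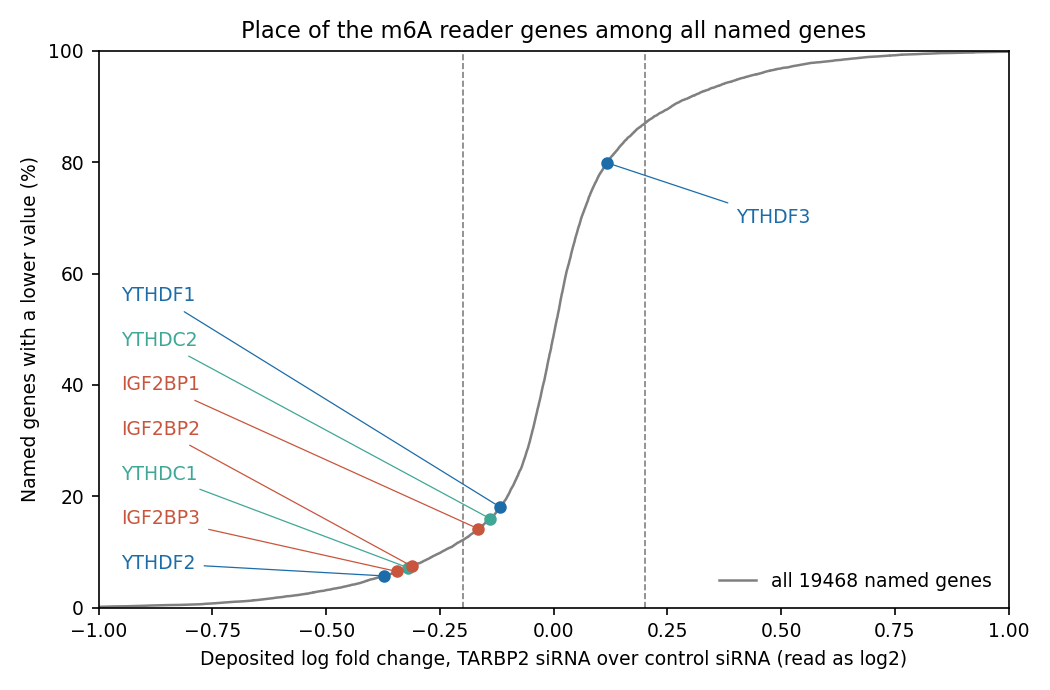
Place of the readers among the 19468 genes with a name in the authors' deposited table. The x axis is the deposited log fold change (TARBP2 siRNA over control siRNA, read as log2), the y axis the percentage of named genes with a lower value, the grey curve all named genes and the points the 8 readers; 4 readers sit between 5.73% and 7.47%, 3 between 14.2% and 18.1%, and YTHDF3 at 79.9%.

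The 8 readers lie on 8 different chromosomes, so they share no locus. The sequence around the gene start is shown for the 4 readers past -0.2, as the stretch from 250 bases before to 50 bases after the outermost start of the gene, 5′ to 3′ on the strand of the gene, from RefSeq (GRCh38.p14). Capitals mark the motifs searched on both strands: the letters TATAAA of a box known for placing the start of transcription, the CCAAT box, the GC box with the letters GGGCGG, the E-box with the letters CACGTG, the ETS core with the letters CCGGAAG and the cAMP response element with the letters TGACGTCA. The stretches are chr1:28736374-28736673 on the plus strand for YTHDF2, and on the minus strand chr7:23470442-23470741 for IGF2BP3, chr4:68350041-68350340 for YTHDC1 and chr3:185824993-185825292 for IGF2BP2.
YTHDF2: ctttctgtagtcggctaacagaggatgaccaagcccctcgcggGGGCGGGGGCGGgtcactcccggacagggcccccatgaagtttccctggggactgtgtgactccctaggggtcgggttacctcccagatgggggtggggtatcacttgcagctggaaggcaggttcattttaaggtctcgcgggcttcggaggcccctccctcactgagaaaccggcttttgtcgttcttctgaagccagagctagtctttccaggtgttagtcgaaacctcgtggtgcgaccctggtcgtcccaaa
IGF2BP3: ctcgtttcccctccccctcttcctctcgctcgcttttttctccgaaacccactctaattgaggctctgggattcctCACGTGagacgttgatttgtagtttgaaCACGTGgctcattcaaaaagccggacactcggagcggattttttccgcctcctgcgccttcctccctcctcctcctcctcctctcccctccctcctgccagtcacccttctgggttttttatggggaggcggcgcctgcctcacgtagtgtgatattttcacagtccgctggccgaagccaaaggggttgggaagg
YTHDC1: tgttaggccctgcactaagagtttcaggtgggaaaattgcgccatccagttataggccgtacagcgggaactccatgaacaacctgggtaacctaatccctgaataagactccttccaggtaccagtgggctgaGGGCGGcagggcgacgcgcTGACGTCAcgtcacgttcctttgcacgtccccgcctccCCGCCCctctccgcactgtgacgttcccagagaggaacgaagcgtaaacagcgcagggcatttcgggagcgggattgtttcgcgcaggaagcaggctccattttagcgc
IGF2BP2: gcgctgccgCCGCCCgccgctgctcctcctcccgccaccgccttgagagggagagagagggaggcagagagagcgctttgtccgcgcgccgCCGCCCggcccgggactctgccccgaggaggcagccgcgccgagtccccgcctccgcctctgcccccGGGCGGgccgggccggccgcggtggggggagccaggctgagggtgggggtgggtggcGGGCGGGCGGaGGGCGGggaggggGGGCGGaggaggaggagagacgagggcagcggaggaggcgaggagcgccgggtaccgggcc

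These 4 stretches have no motif in common. GGGCGG occurs 7 times at IGF2BP2, 2 times at YTHDC1 and 2 times at YTHDF2, and not in the stretch of IGF2BP3, while 45.0% of all 35116 RefSeq start regions of the same length hold it. CACGTG occurs 2 times at IGF2BP3, and once in the stretch of YTHDF1, which had a value inside -0.2. At least 1 copy is held by 7.26% of all start regions. TGACGTCA occurs once at YTHDC1, and also in the stretch of YTHDC2, which had a value inside -0.2. It is held by 1.85% of all start regions. Over the 6 readers with an entry, 8 start regions in all, GGGCGG was found in 6, CCAAT in 4 (34.6% of all regions), CACGTG in 2, TGACGTCA in 2, TATAAA in 1 (11.5%) and CCGGAAG in 0 (10.3%). The ratio of observed to expected CpG was above the median of all start regions (0.579) in 7 of the 8, and the GC content was above the median (58.7%) in 4 of the 8. The CpG ratio was 0.595 for YTHDF2, 0.75 for IGF2BP3, 0.901 for YTHDC1 and 0.808 for IGF2BP2 in the stretches shown. A second start region of YTHDF2, not shown, had a ratio of 1.08 with 4 copies of GGGCGG and 1 of CCAAT. A second one of IGF2BP2, not shown, had a ratio of 0.338 with 0 copies of GGGCGG, 1 of TATAAA and 1 of CCAAT. Overlapping copies were counted separately. A motif match is a run of letters and not a measured binding site.

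The rest of the m6A pathway had values on both sides of 0, as did all named genes, of which 49.0% were below 0. Of all named genes, 12.1% lay under -0.2 and 13.1% over 0.2. Among the 12 genes of the writer list, which holds the METTL3 complex and other RNA methyltransferases, 3 lay under -0.2 and 2 over 0.2 in the authors' deposited table, with a median of -0.02. METTL3, the catalytic subunit, was listed at 0.05 and METTL14, its partner, at -0.06 in the authors' deposited table, both named here after their values were seen. The values farthest from 0 belonged to adaptors and to a cap methyltransferase. RBM15 and RBM15B, related adaptors that bring the complex to its RNA, were listed at -0.62 and 0.64 in the authors' deposited table. CBLL1, also known as HAKAI, was listed at -0.37 and PCIF1, which methylates the adenosine beside the cap, at 0.55 in the authors' deposited table. The demethylases divided as well, with FTO at 0.40 and ALKBH5 at -0.20 in the authors' deposited table.

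Other RNA-binding proteins linked to m6A lay on both sides. Of 11 genes, 3 were under -0.2 and 3 over 0.2 in the authors' deposited table, with a median of 0.0037. The shares of all named genes were 12.1% and 13.1%. The initiation factor subunit EIF3A was listed at -0.45 and HNRNPA2B1, a nuclear protein bound to m6A-marked transcripts, at -0.38 in the authors' deposited table. HNRNPA2B1 had records at -0.55 and -0.22. SND1 was listed at 0.52 and RBMX, known to bind RNA opened by the mark, at 0.43 in the authors' deposited table.

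The partners of the YTH readers also lay on both sides of 0. For comparison with the counts below, 12.1% of all named genes lay under -0.2 and 13.1% over 0.2. Of the 10 measured CCR4-NOT subunits, the deadenylase that YTHDF2 recruits, 2 lay under -0.2 and 2 over 0.2 in the authors' deposited table, with a median of 0.005. CNOT1, the scaffold that YTHDF2 binds, was listed at -0.44, with records at -0.47 and -0.40, and CNOT11 at -0.29 in the authors' deposited table. CNOT2 was listed at 0.58 and CNOT10 at 0.22 in the authors' deposited table. YTHDF2 is also known to start decay through RIDA and the endonucleases RNase P and MRP. On that list of 12, with UPF1, 3 lay under -0.2 and 3 over 0.2 in the authors' deposited table, with POP4 at -0.79, RPP25 at 0.92, RPP21 at 0.49 and the helicase UPF1 at 0.45. Of the 9 listed partners of YTHDC1 in splicing, export and the nucleus, 2 lay under -0.2 and 2 over 0.2 in the authors' deposited table. KHDRBS1 was listed at -0.52, SAFB2 at -0.51, the mRNA export receptor NXF1 at 0.53 and emerin (EMD) at 0.21 in the authors' deposited table. NXF1 had records at 0.46 and 0.61.

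Cofactors of the IGF2BP proteins had their median at -0.12 in the authors' deposited table, with 2 of 8 below -0.2 and 1 above 0.2. Among all named genes, 12.1% lay below -0.2 and 13.1% above 0.2. ELAVL1, which binds AU-rich elements and stabilises mRNAs, was listed at -0.26 in the authors' deposited table. HNRNPU was listed at -0.23 there, with records at -0.53 and 0.08. SYNCRIP was listed at -0.15, and YBX1, a cold shock domain protein, at 0.35 in the authors' deposited table. The 16 mRNAs listed as known to be bound by IGF2BP proteins had their median at 0.0021 in the authors' deposited table, with 3 below -0.2 and 2 above 0.2. NRAS was listed at -1.31, the cyclin gene CCNG1 at -0.53 and LAMB2 at 0.38 in the authors' deposited table. MYC, a known IGF2BP target, was listed at -0.29 in the authors' deposited table. CD44, another known target named after its value was seen, was listed at -0.10 there, with records from -0.59 to 0.20.

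**Figure D3:**
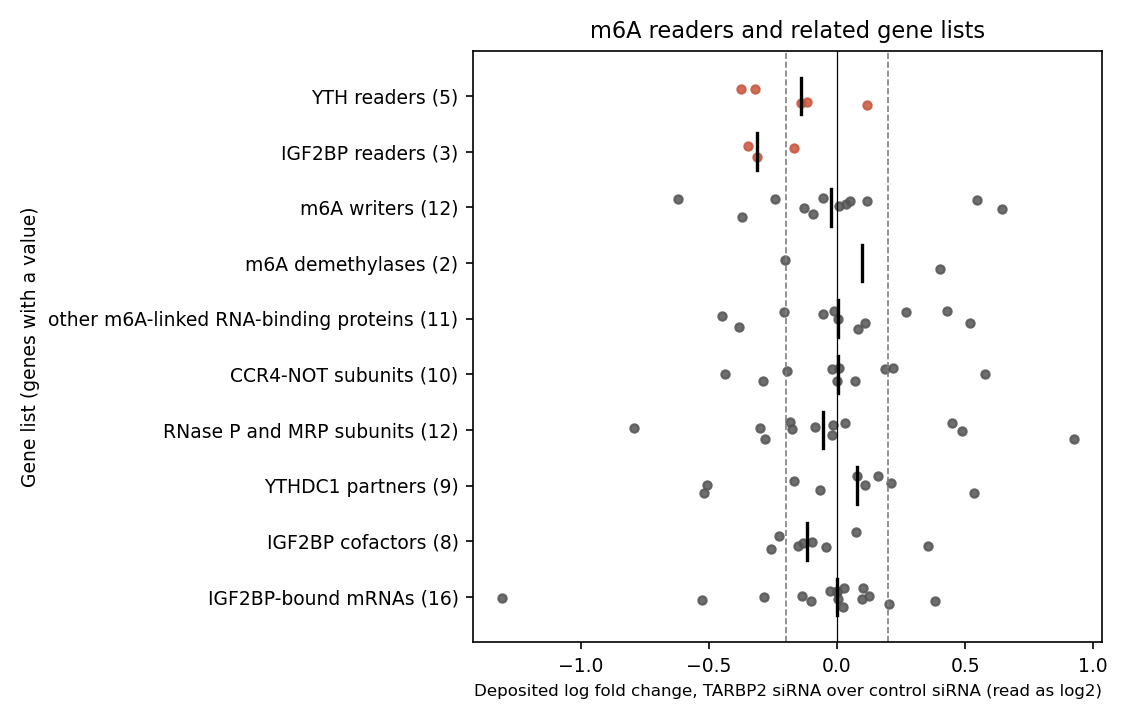
Log fold change in the authors' deposited table (x axis, TARBP2 siRNA over control siRNA, read as log2) of the readers (red) and of 8 lists of related genes (grey). Each point is 1 gene, the number of genes is in brackets, black bars are medians and dashed lines mark -0.2 and 0.2; points are shifted up or down at random within a list. The medians are -0.14 for the YTH readers and -0.31 for the IGF2BP readers, and the other lists range from -0.12 to 0.10.

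Over the 8 related lists together, 80 genes had a value, and 19 of them (23.8%) were under -0.2 and 16 (20.0%) over 0.2 in the authors' deposited table, with a median of -0.0056. Over all named genes these shares were 12.1% and 13.1%. The readers had 4 of 8 below -0.2 and 0 of 8 above 0.2. Markers of cell types were listed in the same table without levels. Of the 7 basal or mesenchymal markers, the type of the cell line, 1 lay above 0.2 and 1 below -0.2. Among markers of other cell types, of the 6 leukocyte markers 3 lay above 0.2 and 0 below -0.2, of the 8 luminal markers 2 above and 1 below, and of the 6 fibroblast and endothelial markers 1 over and 0 under these bounds in the authors' deposited table. Their part in the reader values was not tested.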

How the data were processed

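Total RNA from 4 samples of MDA-LM2 cells was measured on Illumina BeadChips, per the labels' protocols. The authors' deposited table of log2 fold changes (base assumed) holds 39745 records with an added class of 0 or 1. The deposited probe intensity values are scanner signals, and a second deposited table holds normalized intensity values. The detection score of the deposited table is a fraction from 0 to 1, and 1 minus it was used as the detection p-value. The submitters' processing notes name lumi, with settings not given in the sources used here.

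Records were matched without versions to RefSeq (GRCh38.p14), which named 22411 (56.4%), and averaged per gene. The members and gene lists were chosen with earlier results of these data known. Named genes are the 8 readers, TARBP2 and, from each related list, the 4 genes farthest from 0. METTL3, METTL14 and CD44 were added after their values were seen. CNOT6 had no named record. A listed gene was left out after the lists were made and is not reported here. Likeness of pattern across samples was not computed, as no reader has a value per array.

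Probes were normalized with neqc (offset 16) in limma 3.58.1 (R 4.3.3), kept when detected at p under 0.05 on at least 2 arrays, and compared with lmFit and eBayes (trend, Benjamini-Hochberg). The fit was tested on simulated arrays of 21075 probes with the spread of the control pair. There it called 100 of 100 probes changed by 2 (log2), 98 of 100 changed by 1, and 12 unchanged probes. The real knockdown arrays differed far more, with an SD of the log2 difference of 0.852 beside 0.25 for the controls. The simulation thus does not tell how many changed probes the fit could call on the real arrays. With 2 arrays a group, an exact permutation test cannot go below p = 0.333, and the number of arrays limits the precision. Between 19411 and 21639 of 47321 probes were detected on each array. Tables were handled in Python 3.11.15 with pandas 2.3.3.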

Additional observations from a re-analysis of the deposited data

How the results depend on the processing

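Each reader has 1 curated record, so the median over records, curated records only and the record farthest from 0 gave the same 8 values. Read as natural logarithms and turned into log2, IGF2BP1 stood at -0.24 and YTHDC2 at -0.20 (-0.2014), both past -0.2, and 6 readers lay below it, beside 16.1% of named genes. The bound was kept at -0.2 here and not rescaled with the values. Rescaling both leaves the count below at 4, so the rise to 6 does not reflect the log base itself. At a threshold of 0.3 the count below stayed at 4, beside 7.91% of named genes. At 0.1 it was 7 below and 1 above, beside 20.2% and 22.3% of named genes. These settings could not change the sign of a reader, since each keeps its 1 value, rescales it or moves only the threshold. For the array probes, limma gave 0 calls with a common median, the authors' normalized values, either other filter, no trend or a robust prior, with 613 to 1740 probes at an unadjusted p under 0.05. The same numbers in both groups are not stated to pair arrays, and deviations of same-numbered arrays correlated at -0.0418 across probes. With the replicate block the count was also 0, with 1019 at an unadjusted p under 0.05. With 1 array left out it ranged from 0 to 12035: 4479 without knockdown array 1, 12035 without knockdown array 2 and 0 when a control array was dropped. In these fits the single array is taken to vary as the pair did. The depth of the reader values is unknown, since signal and background cannot be read for them.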
